A study of Rattus norvegicus with 12 samples.

Results

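The comparison set the thoracic spinal cord of rats carrying the G93A mutation of SOD1 against that of wild-type (WT) rats after sham surgery. Its members were the 4 pools, of 12 in the series, whose labels give sham surgery: 1 WT and 1 G93A pool taken 30 min after it, and 1 of each taken 4 h after it. All were female Sprague-Dawley rats aged 10 weeks. The sham operation opened the vertebral canal (laminectomy) without compressing the cord. The other 8 pools came from rats of both genotypes with a mild compression injury of the cord, and they serve here only as a second look at the same genes.

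Each pool joined the RNA of several rats and was read on 1 Illumina expression array. The sources used here do not give the number of rats per pool, the rat line, or whether the mutation sits in a transgene. With 1 pool for each genotype and time, the error of a genotype difference given below is the disagreement between the 30 min pair and the 4 h pair, shared over all probes. Tests that compare the times or the kinds of surgery, or leave out a sham pool, take their error from a fit that also holds the injured pools. Either error may be technical, and neither measures the spread between animals.

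SOD1 is the cytosolic enzyme that turns superoxide into hydrogen peroxide. Dominant mutations in it cause a familial form of amyotrophic lateral sclerosis, in which motor neurons of the cord and cortex die. The G93A protein is toxic by a gain of function rather than by loss of the enzyme, and in rodents that carry it motor neuron loss is accompanied by activated microglia and astrocytes. The comparison asks which transcripts already differ in the mutant cord without a compression injury.

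Of 22226 probes, 11883 passed the filter of a detection on 2 or more of the 4 sham arrays, and 8374 of these carry a gene name. The share of probes detected lay between 50.97% and 53.78% in the sham pools. Genes that define cord tissue were present: the lists of myelin, neuronal and homeostatic astrocyte genes each summed to 15.20 or more on the log2 scale in every sham pool. The list of 6 erythrocyte genes summed to between 15.68 and 15.78 in the same pools, so these sums do not measure how pure the tissue was. Levels are log2 normalized intensities, and differences are G93A minus WT on that scale, so that a difference of 1 is a doubling. Gene names rest on probe identifiers put in sorted order next to the values. As deposited, the average share of arrays with a detection was 48.1% for 184 receptors of smell and 52.78% for 111 genes of the ribosome and proteasome. After sorting it was 8.243% for the first and 90.47% for the second. In pooled tissue, more cells of a type and more RNA per cell cannot be told apart.

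No probe passed the test of genotype. In the limma fit over the 4 sham pools, 0 of 11883 probes had an adjusted p under 0.05, which is 0% of those tested. At an unadjusted p under 0.05 there were 1194 probes, or 10% of those tested, of which 629 were higher in G93A (5.29%) and 565 lower (4.75%). The genotypes were close in both pairs. At 30 min, 97 probes (0.816%) differed at least 1.5-fold, 59 of them higher in G93A and 38 lower. At 4 h the count was 101 (0.85%), 51 higher and 50 lower. Only 4 probes differed at least 1.5-fold in the same direction at both times, 2 higher (0.0168%) and 2 lower (0.0168%), and none did so 2-fold. Another 7 probes (0.0589%) differed by that much in opposite directions. Across the 11883 probes the differences of the 2 pairs had a Pearson correlation of 0.23. This is a description, since probes are not independent replicates and the 2 arrays of a pair share every probe's comparison.

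**Figure D1:**
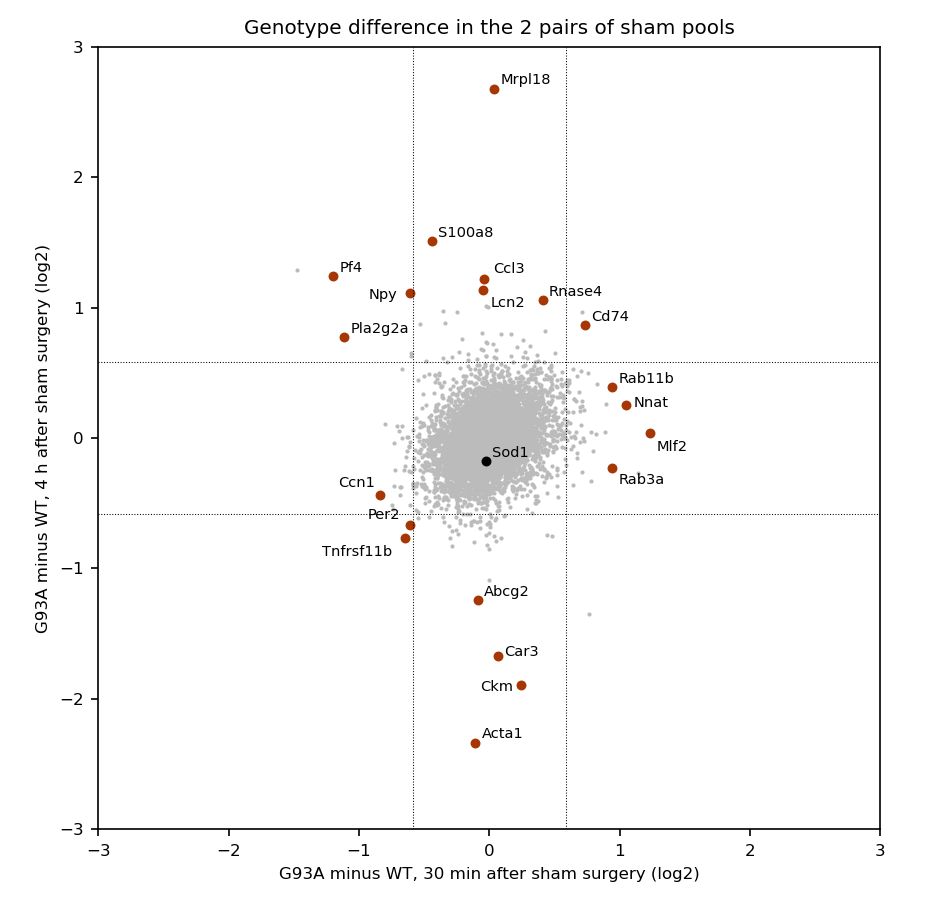
Each grey point is 1 of 11883 probes, with the G93A minus WT difference at 30 min after sham surgery on the horizontal axis and at 4 h on the vertical axis, both on the log2 scale. Dotted lines mark 1.5-fold, and named genes of the text are coloured, Sod1 in black. Cd74 lies past 1.5-fold upward in both pairs and Per2 and Tnfrsf11b downward in both, while Acta1, Ckm, Mrpl18 and S100a8 differ at 4 h alone.

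Sod1 itself differed little between the genotypes. Its level at 30 min was 12.82 in WT and 12.80 in G93A. At 4 h it was 12.95 in WT and 12.77 in G93A. Both G93A pools lay just below both WT pools. The mean difference was -0.10 ± 0.09 (SE, 2 pools against 2, limma adjusted p = 0.766), with a 95% interval from -0.30 to 0.10. It was -0.18 from the series matrix values and -0.19 with median scaling. The 4 pairs of injured pools scattered on both sides of 0, with differences of 0.05 at 30 min, -0.27 at 4 h, -0.23 at 24 h and 0.35 at 7 d. Over all 12 pools the level stayed between 12.29 and 12.95. The probe does not check the genotype labels: the sources used here do not say which transcripts it reads, the mutated one included.

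The probe with the smallest p was Cd74, the invariant chain that escorts major histocompatibility complex class II molecules in microglia, macrophages and B cells. At 30 min Cd74 stood at 9.08 in WT and 9.81 in G93A. At 4 h it stood at 8.70 in WT and 9.57 in G93A. Both G93A pools thus lay above both WT pools, by 1.67-fold at 30 min and 1.83-fold at 4 h. The mean difference was 0.80 ± 0.12 (SE, 2 pools against 2), and the limma adjusted p of 0.0709 missed the threshold. An exact two-sided permutation test over the 4 pools, with the pairing by time set aside, cannot go below p = 0.333. In the injured pairs the Cd74 difference was -0.95 at 30 min, 0.12 at 4 h, 0.56 at 24 h and 0.07 at 7 d, so that no injured pair differed upward by as much. The test of the sham against the injured difference, in the fit over 10 pools, gave 0.56 ± 0.22 (limma adjusted p = 0.957).

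Cd74 belongs to the antigen presentation list. Of its 12 members tested, Cd74 included, 0 passed the test, 2 (16.7%) were higher in both pairs and 4 (33.3%) lower in both, against 27.3% and 28% of all probes, and the median of the mean difference was 0.018 against 0.000 over all probes. Beside Cd74, the member higher in both pairs was the peptide transporter subunit Tap1, by 0.01 and 0.02. B2m, the light chain of class I molecules, differed by -0.03 at 30 min and -0.06 at 4 h. RT1-A2, a class I heavy chain, differed by 0.64 at 30 min and -0.36 at 4 h. Of the lymphocyte markers, Cd3e lay between 6.46 and 6.52 and Cd8a between 6.44 and 6.52, and each was not well above background in 2 of the 4 sham pools. Microglial genes differed little under the main normalization. Of 14 tested, 0 passed, 6 (42.9%) were higher in both pairs and 1 (7.14%) lower in both, with a median of 0.037. That median was 0 with median scaling, 0.09 without background modelling and 0.13 from the series matrix values. Cx3cr1, Tmem119 and Spi1 stayed low, between 6.45 and 6.57 in all 4 sham pools. C1qb and C1qa, subunits of the first complement component, differed by 0.25 ± 0.11 and 0.24 ± 0.12. Aif1, which encodes the microglial protein Iba1, differed by -0.15 ± 0.12. Trem2, a lipid-sensing receptor of microglia, differed by -0.22 ± 0.13.

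The window around the Cd74 start site is shown because it was the probe nearest to the threshold. It comes from RefSeq on build GRCr8, chr18:56526956-56527255, plus strand, from 250 bases before the gene's start to 50 after it. Capitals mark the motif CCAAT, the core of the Y box known from class II promoters, searched on both strands.
Cd74: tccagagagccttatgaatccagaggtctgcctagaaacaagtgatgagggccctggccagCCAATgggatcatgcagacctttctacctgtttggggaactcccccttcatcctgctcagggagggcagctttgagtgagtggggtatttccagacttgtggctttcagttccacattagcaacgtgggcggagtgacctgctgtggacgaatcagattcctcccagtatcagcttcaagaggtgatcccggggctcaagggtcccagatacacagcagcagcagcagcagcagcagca
The match begins 189 bases before the start. CCAAT is common, on either strand in 37.5% of 33469 rat promoters of the same length, and a match is a description of the letters alone.

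On the lower side, Tnfrsf11b and Per2 were the named genes at least 1.5-fold apart in both pairs. Tnfrsf11b encodes osteoprotegerin, a decoy receptor that binds the cytokine RANKL. It stood at 8.40 in WT and 7.76 in G93A at 30 min, and at 8.60 and 7.84 at 4 h. Its mean difference was -0.70 ± 0.14 (SE, 2 pools against 2, limma adjusted p = 0.207). The G93A pools did not overlap the WT pools, but in the 4 injured pairs the sign was the other way, with differences of 1.29, 0.15, 0.16 and 0.47 from 30 min to 7 d.

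Per2, a repressor of the circadian clock, stood at 8.62 in WT and 8.0 in G93A at 30 min. At 4 h it stood at 8.65 in WT and 7.98 in G93A. The 2 pairs were alike, and the mean difference was -0.64 ± 0.14 (SE, 2 pools against 2, limma adjusted p = 0.207). Its relative Per1 was lower in both pairs as well, at 9.06 and 8.74 at 30 min and 8.54 and 8.20 at 4 h, in WT and G93A in turn. That difference of -0.33 ± 0.13 had an adjusted p of 0.421 in limma. Over the other tested clock genes, the largest difference in either pair was the -0.25 of Nfil3 at 30 min, with 0.24 at 4 h. The activator Bmal1 differed by -0.02 and 0.08, and Nr1d1 by 0.03 and 0.05. Of the 12 clock genes tested 0 passed, 3 (25%) were higher and 3 (25%) lower in both pairs, and the median was 0.007. Over all probes the shares were 27.3% and 28%. The sources used here do not say at which hour of the day the cords were taken. In the injured pairs Per2 differed by 1.58, 0.61, -0.38 and 0.02 from 30 min to 7 d, so the sham difference had no constant sign there.

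The Per2 window is shown for its clock motifs. It comes from RefSeq on build GRCr8, chr9:99496944-99497243, minus strand. Capitals mark a D box, TTATGTAA, bound by the clock factors Dbp and Nfil3, and a variant E box, CACGTT, bound by Clock and Bmal1, both searched on both strands and not overlapping.
Per2: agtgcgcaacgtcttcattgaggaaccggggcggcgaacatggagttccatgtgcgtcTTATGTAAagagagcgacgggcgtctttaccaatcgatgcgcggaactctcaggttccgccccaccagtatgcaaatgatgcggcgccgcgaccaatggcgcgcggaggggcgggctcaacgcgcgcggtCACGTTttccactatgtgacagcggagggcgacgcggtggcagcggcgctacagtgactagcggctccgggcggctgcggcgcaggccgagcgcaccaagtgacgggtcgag
The D box begins 192 bases and the E box 62 bases before the start. Of 33469 rat promoters of the same length, 0.893% hold TTATGTAA and 4.83% hold CACGTT. Neither match says that a factor was bound in these cords.

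The naming rule took the 10 named genes of smallest p in each direction, given as values since none passed. The direction in both pairs was part of that rule. On the higher side, Aplp1 (a homologue of the amyloid precursor protein, made in neurons) stood at 12.64 in WT and 13.25 in G93A at 30 min, and at 12.46 and 12.89 at 4 h. Its difference was 0.52 ± 0.10 (limma adjusted p = 0.183), and in 3 of the 4 injured pairs it was also above 0. Rnase4, a secreted ribonuclease, stood at 9.48 and 9.89 at 30 min and at 9.65 and 10.71 at 4 h. Rnase4 was variable in the injured pools too, with a difference of 2.03 at 4 h and -1.0 at 30 min.

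Pacsin1, an endocytosis protein of nerve terminals, differed by 0.62 ± 0.13, and it was the only gene of these 10 that was higher in G93A in all 4 injured pairs as well. Igfbp6, a binding protein for insulin-like growth factor II, differed by 0.63 ± 0.13. Rab11b, a small GTPase of recycling endosomes, differed by 0.67 ± 0.14. Arl2, a GTPase that acts in tubulin folding, differed by 0.50 ± 0.11, Psmd4, a ubiquitin receptor of the proteasome, by 0.48 ± 0.11, and Grina, a membrane protein of the Lifeguard family, by 0.48 ± 0.11. Krt72, a hair follicle keratin, was not well above background in either WT pool, and its difference was 0.10 ± 0.02, but 0.70 without background modelling and 1.37 from the series matrix values. It passed the filter through the G93A pools alone, where it was higher, so its place here is not independent of the filter.

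On the lower side, Ccn1, a matrix protein of the immediate early response, stood at 9.24 in WT and 8.40 in G93A at 30 min, and at 8.01 and 7.57 at 4 h. It differed by -0.64 ± 0.15 (limma adjusted p = 0.216), and its 2 genotype groups overlapped, with both lower at 4 h. Ubl3, a membrane-anchored ubiquitin-like protein, differed by -0.56 ± 0.13 and Hnrnpf, a splicing factor, by -0.49 ± 0.11. Cse1l, a nuclear export receptor for importins, differed by -0.44 ± 0.11 and Bcas1, a protein of myelinating oligodendrocytes, by -0.38 ± 0.09. Abcg3l2 differed by -0.21 ± 0.05, but by -0.57 without background modelling and -0.70 from the series matrix values. Dhrs7c was not well above background in either G93A pool and differed by -0.11 ± 0.03, with -0.61 and -1.27 under the same settings. It passed the filter through the WT pools alone, so the same limit holds as for Krt72. Acta1 was the remaining gene of the 10 and is described with the muscle genes below.

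**Figure D2:**
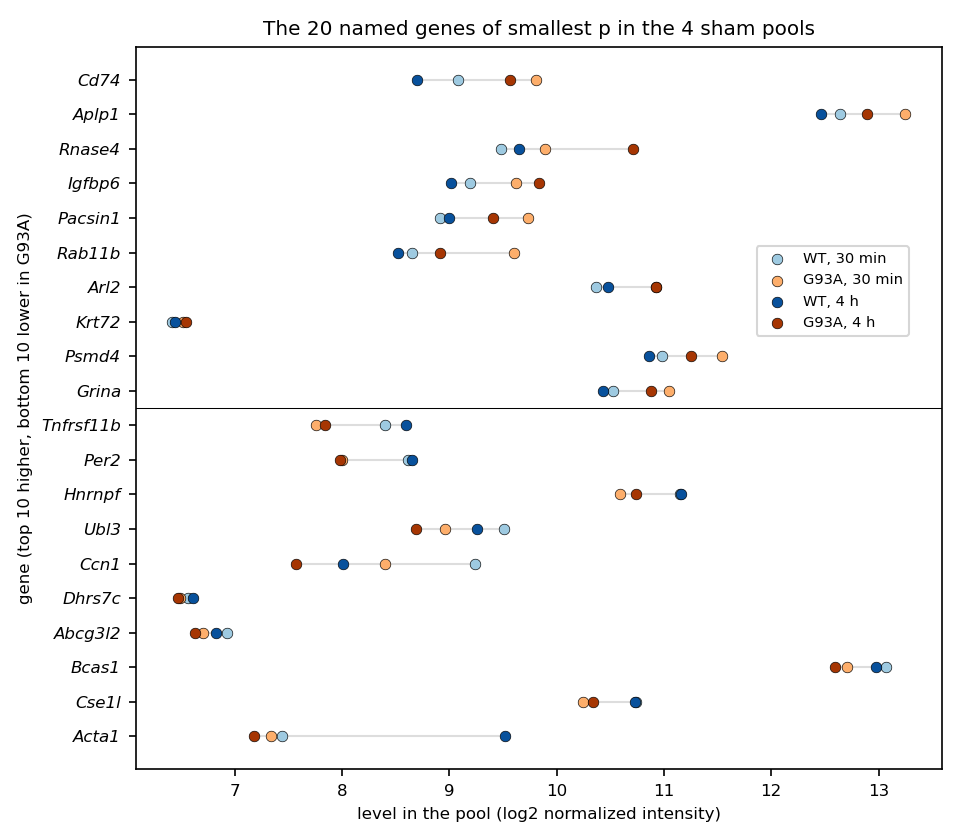
Each row is 1 of the 20 named genes of smallest p, 10 higher and 10 lower in G93A, with its log2 normalized intensity in each of the 4 sham pools. Blue points are WT and orange to brown points are G93A, light at 30 min and dark at 4 h. In 10 of the 10 upper genes and 9 of the 10 lower ones the genotypes do not overlap, and the rule chose them for agreeing in direction. Krt72 and Dhrs7c passed the filter only through the genotype where they were higher. For Acta1 the WT pool at 4 h stands alone.

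Groups that do not overlap are common with 2 pools a side. Of all 11883 probes, 2020 (17%) had both G93A pools above both WT pools, and 2136 (18%) had both below.

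The injured pools share no RNA with the sham pools, and the direction there was often the other one. Of the 10 higher genes, 4 were higher in G93A at 30 min after injury, 6 at 4 h, 7 at 24 h and 6 at 7 d. Of the 10 lower genes, 1 was lower at 30 min, 1 at 4 h, 6 at 24 h and 5 at 7 d, and 0 were lower in all 4 pairs. The wider set was the 1163 probes with an unadjusted p under 0.05 and 1 direction in both sham pairs. They kept their sign in 22% of cases at 30 min, 36.8% at 4 h, 58.4% at 24 h and 39.7% at 7 d. Over all probes tested the shares were 38.5%, 45.2%, 52.4% and 46.3%. The WT pool taken 30 min after injury stood apart, with 41.26% of probes detected against 49.62% to 53.78% in the other pools, and that pair differed at least 1.5-fold at 2728 probes against 267 to 585 in the other injured pairs. In the limma fit without that pair, the test of the sham against the injured genotype difference called 0 probes, with 525 at an unadjusted p under 0.05 (4.42%). The genotype difference within the injured pools called 0 as well, also with 525 unadjusted.

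**Figure D3:**
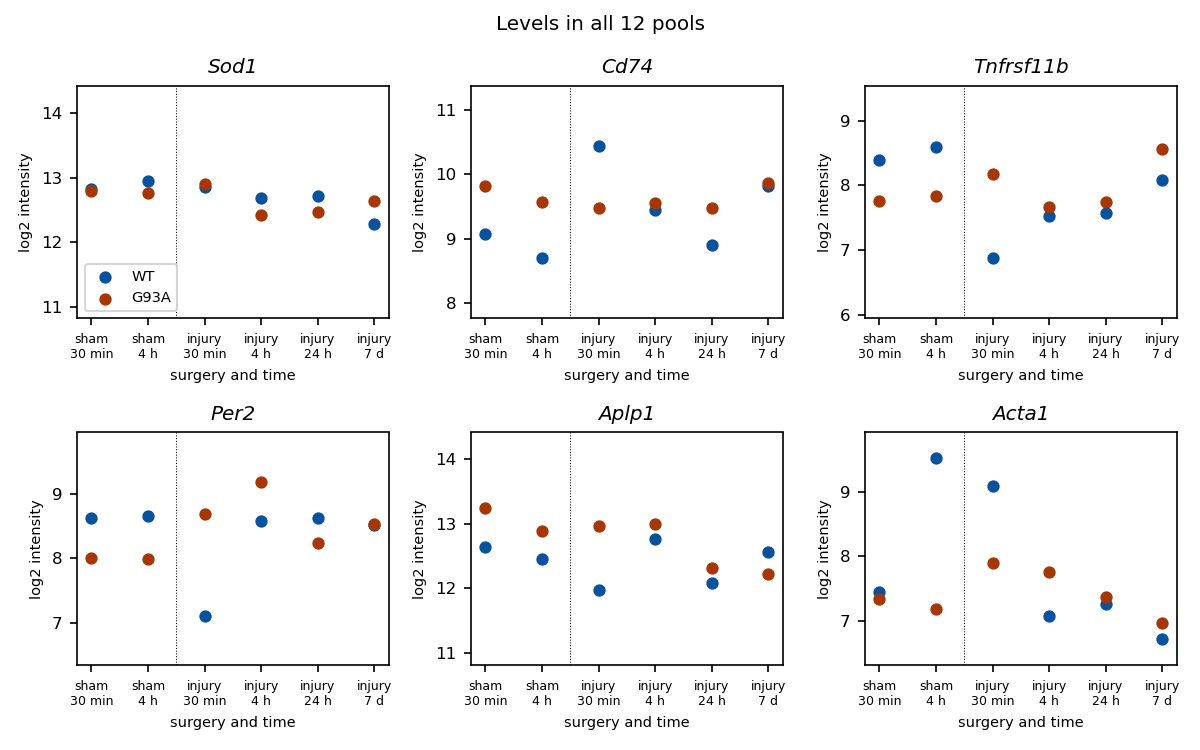
Each panel gives the log2 normalized intensity of 1 gene in all 12 pools, with WT in blue and G93A in brown, sham pools left of the dotted line and injured pools right of it. All panels span the same number of log2 units. Sod1 stays between 12.29 and 12.95, Cd74 and Aplp1 are higher and Tnfrsf11b and Per2 lower in G93A in both sham pairs, and Acta1 is high in 2 WT pools.

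The largest differences stood at 1 time only. At 4 h skeletal muscle genes were lower in G93A, and it was the WT pool of that time that stood above the other 3 sham pools. Acta1, the actin of skeletal muscle fibres, stood at 7.44 in WT and 7.34 in G93A at 30 min, and at 9.52 in WT and 7.18 in G93A at 4 h. Ckm, the muscle creatine kinase, stood at 6.43 and 6.68 at 30 min and at 8.34 and 6.45 at 4 h. It was not well above background in the G93A pool at 4 h, which makes it at least 3.65-fold lower there. Car3, a carbonic anhydrase of slow muscle and fat, stood at 6.55 and 6.62 at 30 min and at 8.24 and 6.56 at 4 h. In each of the 3 genes the WT pool at 4 h alone stood above the others.

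Of the 14 muscle list members tested, 0 were at least 1.5-fold apart at 30 min and 6 (42.9%) were at least 1.5-fold lower in G93A at 4 h, against 0.421% of all probes. The 6 were Acta1, Ckm, Mb, Tnnt3, Myl11 and Myl1, proteins of the sarcomere and of muscle oxygen and energy supply. The 3 members higher in G93A at 4 h were Pvalb, Pygm and Tnnc2, which differed by 0.33, 0.23 and 0.14. The list summed to 12.32 and 12.50 in WT and to 12.45 and 12.33 in G93A, at 30 min and 4 h in turn. The list's median was 0.070 at 30 min and -0.386 at 4 h. Muscle transcripts were also high in the WT pool taken 30 min after injury, with Acta1 at 9.09, Ckm at 8.30 and Tnnt3 at 7.58, the highest of the 8 injured pools for each gene. Whether muscle beside the vertebrae entered the dissected tissue was not tested.

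Mb, the oxygen store of muscle fibres, was the 1 probe whose genotype difference itself differed between the times. It stood at 6.49 in both genotypes at 30 min, and at 7.23 in WT and 6.50 in G93A at 4 h. The difference at 4 h minus that at 30 min was -0.72 ± 0.07 (SE, limma over 10 pools, adjusted p = 0.0467), with the error taken from the 6 injured pools. It was 1 of 11883 probes (0.00842%), with 123 (1.04%) at an unadjusted p under 0.05, and the call was lost under each of the 4 other settings tried. Without either 30 min sham pool, the genotype difference is that of 1 WT and 1 G93A pool at 4 h, assumed to vary like the injured pairs. The 7 probes then called, all lower in G93A, restate that this WT pool was high: Acta1, Car3, Mb, Tnnt3, Actn3, Ckm and Myh7. Of these 5 are on the muscle list, and Myh7, the slow muscle myosin, and Car3 are not. Without either 4 h sham pool 0 probes were called, and 173 or 175 had an unadjusted p under 0.05.

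The Acta1 window is shown because Acta1 had the largest fold of the comparison after Mrpl18. It comes from RefSeq on build GRCr8, chr19:68784145-68784444, minus strand. Capitals mark first a CArG box, the binding site of serum response factor in muscle promoters, and then a TATA box, TATAAA, both searched on both strands and not overlapping.
Acta1: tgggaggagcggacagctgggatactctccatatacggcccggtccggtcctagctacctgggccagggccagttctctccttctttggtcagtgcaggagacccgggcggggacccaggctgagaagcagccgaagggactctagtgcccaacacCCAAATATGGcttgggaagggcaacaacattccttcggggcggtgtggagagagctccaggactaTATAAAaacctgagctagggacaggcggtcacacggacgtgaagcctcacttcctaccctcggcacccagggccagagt
The first begins 94 bases and the second 29 bases before the start. A CArG box is in 1.64% of 33469 rat promoters of the same length and TATAAA in 14.2%.

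Some inflammatory genes lay the other way at 4 h, with higher levels in the G93A pool. S100a8, a calcium-binding protein abundant in neutrophils, stood at 7.11 in WT and 6.67 in G93A at 30 min. At 4 h it stood at 7.80 in WT and 9.31 in G93A, a 2.84-fold difference. Both 4 h pools were above both 30 min pools, and the G93A pool was the higher of them. Lcn2, the iron-scavenging lipocalin 2, stood at 6.99 and 6.94 at 30 min and at 9.33 and 10.47 at 4 h, which is 2.20-fold higher in G93A. Ccl3, a chemokine made by activated microglia and macrophages, stood at 7.41 and 7.37 at 30 min and at 7.14 and 8.36 at 4 h. Here only the G93A pool at 4 h was high. Over both times the mean differences were 0.53 ± 0.28 for S100a8, 0.54 ± 0.20 for Lcn2 and 0.59 ± 0.21 for Ccl3, with limma adjusted p of 0.535, 0.361 and 0.338. For S100a8 that difference was 0.17 without background modelling and 0.08 from the series matrix values.

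Among 20 cytokines and chemokines tested, 0 passed the test, 4 (20%) were at least 1.5-fold higher in G93A at 4 h, and 1 (5%) was lower, against 0.429% and 0.421% of all probes. The higher ones were Ccl3, Ccl4, Il1b and Ccl5, and the lower one was Cxcl1. Ccl4 differed by -0.25 at 30 min and 0.97 at 4 h, Il1b, the interleukin 1 beta gene, by 0.05 and 0.68, and Ccl5 by -0.23 and 0.66. Cxcl1, a chemokine that draws neutrophils, was lower at both times, by -0.46 and -0.60, with levels of 7.86 and 7.40 at 30 min and 9.41 and 8.80 at 4 h in WT and G93A. Other members with high levels at 4 h differed less: Ccl2 stood at 9.87 in WT and 9.99 in G93A, and Cxcl10 at 8.77 and 9.19. The median of the list was -0.042 at 30 min and 0.026 at 4 h.

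Of 8 neutrophil markers tested, 0 passed the test. At 4 h 2 (25%), S100a8 and Lcn2, were at least 1.5-fold higher in G93A, against 0.429% of all probes. The list summed to 9.67 and 10.47 in WT and to 9.57 and 11.37 in G93A, at 30 min and 4 h. The granule genes Camp, Prtn3 and Mmp9 stayed between 6.46 and 6.54 in all 4 sham pools. Of 14 endothelial genes, 0 passed, and 3 (21.4%) were at least 1.5-fold higher at 4 h, against 0.429% of all probes. They were Esam, a junction protein, Sele, the adhesion molecule E-selectin, and the transporter Slc38a5. The 1 endothelial gene (7.14%) at least 1.5-fold lower at 4 h, against 0.421% of all probes, was Abcg2, an efflux pump of the blood-brain barrier. Abcg2 was 2.37-fold lower, with levels of 9.81 and 9.73 at 30 min and 9.25 and 8.01 at 4 h. Sele stood at 6.74 in WT and 7.37 in G93A at 4 h and was not well above background in either 30 min pool. Between 30 min and 4 h, 132 probes differed at least 1.5-fold in the WT sham pools and 283 in the G93A sham pools, counts from 1 pool a side with no test.

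**Figure D4:**
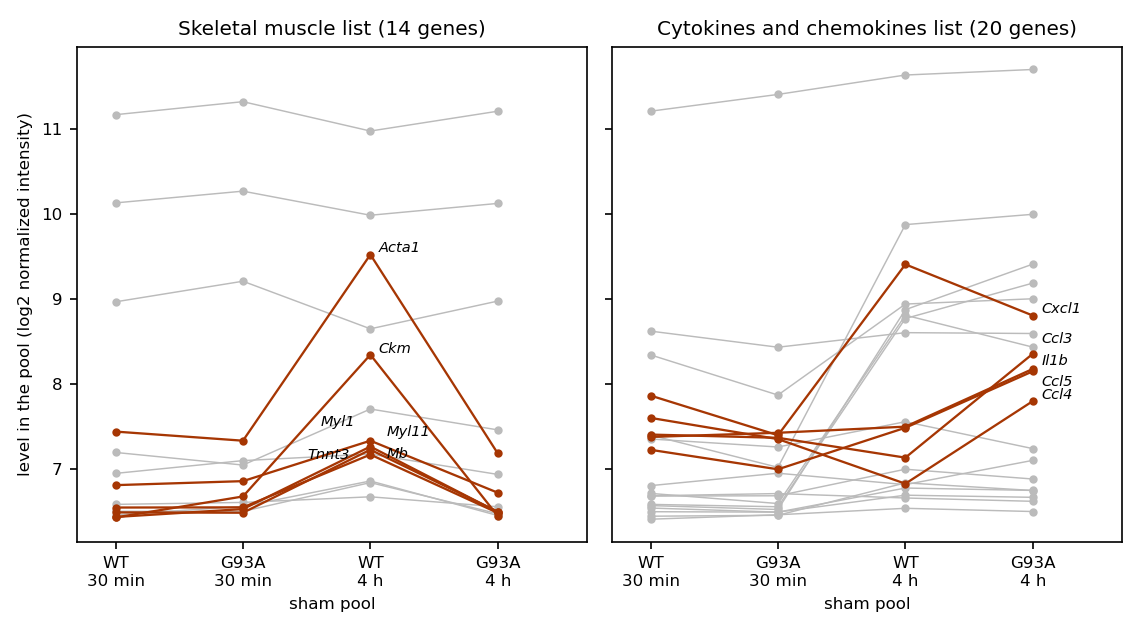
Each line joins the log2 normalized intensities of 1 gene in the 4 sham pools, for the 14 muscle genes tested on the left and the 20 cytokines and chemokines on the right. Brown lines are genes at least 1.5-fold apart between the genotypes at 4 h. The 6 brown muscle genes peak in the WT pool at 4 h alone, and 4 of the 5 brown cytokines are highest in the G93A pool at 4 h.

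Mrpl18, a protein of the mitochondrial ribosome, had the largest difference of all named probes. It stood at 6.63 in WT and 6.67 in G93A at 30 min, and at 6.6 in WT and 9.28 in G93A at 4 h, a 6.41-fold difference. Its level was also high in 2 injured WT pools, 8.70 at 4 h and 9.22 at 7 d, and between 6.45 and 6.88 in all other pools. High and low pools therefore did not follow genotype, surgery or time. At 30 min the largest named differences upward were those of Mlf2 (2.35-fold higher, from 8.11 to 9.34) and of Nnat, a neuronal membrane protein from an imprinted gene (2.07-fold higher, from 8.34 to 9.38). At 4 h Mlf2 stood at 8.25 and 8.29 and Nnat at 8.14 and 8.40.

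Of the 7 probes 1.5-fold apart in opposite directions, 5 are named, and 6 were lower in G93A at 30 min. Pf4, the platelet chemokine, stood at 10.42 in WT and 9.22 in G93A at 30 min and at 9.69 and 10.93 at 4 h. Pla2g2a, a secreted phospholipase, stood at 8.38 and 7.26 at 30 min and at 8.23 and 9.0 at 4 h. Npy, a neuropeptide of inhibitory neurons, differed by -0.61 and 1.11, Plek, a protein of platelets and leukocytes, by -0.60 and 0.63, and Lgals5, a galectin of rat reticulocytes, by -0.60 and 0.65. For Pf4 the mean difference was 0.02 ± 0.32, since the pairs cancelled. The difference between its pairs had a limma adjusted p of 0.101.

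Immediate early genes, which respond within minutes to stimulation, had medians of opposite sign at 30 min and 4 h. Of 23 tested, 0 passed, 18 were lower in G93A at 30 min and 15 were higher at 4 h. Only 2 were at least 1.5-fold lower at 30 min and 1 at least 1.5-fold higher at 4 h, against 0.32% and 0.429% of all probes. In both pairs 3 (13%) were higher and 6 (26.1%) lower, against 27.3% and 28% of all probes. The medians were -0.102 and 0.114, with 1 pool against 1 at each time. Over all probes they were -0.002 and 0.001, so about as many probes lay above 0 as below it at each time. Egr1 stood at 10.74 in WT and 10.07 in G93A at 30 min and at 9.01 and 9.55 at 4 h. Fos stood at 9.99 and 9.67 at 30 min and at 8.61 and 9.20 at 4 h. In each of these genes the WT pools lay further apart in time than the G93A pools.

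The genes of the disease itself were close in both pairs. Of 16 genes linked to amyotrophic lateral sclerosis other than Sod1, 0 passed, and the median was 0.002. In both pairs 5 (31.2%) were higher and 6 (37.5%) lower, against 27.3% and 28% of all probes. Kif5a, a motor protein of axons, differed by 0.31 ± 0.14, Dctn1, a dynactin subunit, by 0.26 ± 0.12 and Vcp, a segregase of ubiquitinated proteins, by -0.22 ± 0.10. Of 14 motor neuron genes, 0 passed, 7 (50%) were higher and 3 (21.4%) lower in both pairs, and the median was 0.032. Of the members so counted, Isl2, Esrrb, Mmp9, Esrrg and Isl1 stayed between 6.43 and 6.57 and differed by 0.08 or less. Slc18a3, the vesicular acetylcholine transporter, stood at 9.31 and 9.64 at 30 min and 9.57 and 9.88 at 4 h, and differed by 0.32 ± 0.12. Slc5a7, the choline transporter of the same terminals, differed the other way, by -0.20 ± 0.09. The 5 neurofilament genes had a median of 0.088, and Nefl, the light subunit, differed by -0.04 ± 0.09.

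Of 17 genes that remove superoxide and peroxide, 0 passed, with a median of 0.088. In both pairs 10 (58.8%) were higher and 3 (17.6%) lower, against 27.3% and 28% of all probes. The median was 0.09 without background modelling, but 0.01 with median scaling and 0.02 from the series matrix values. Sod3, the extracellular superoxide dismutase, stood at 9.10 and 9.52 at 30 min and at 9.21 and 9.79 at 4 h. Its difference of 0.50 ± 0.12 had an adjusted p of 0.216 in limma, and in all 4 injured pairs it was below 0, between -0.47 and -0.09. Cat, the catalase gene, differed by -0.26 ± 0.14. Among 14 targets of Nrf2, the regulator of the antioxidant response, the median was 0.058, and Gstp1, a glutathione transferase, differed by 0.27 ± 0.12.

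Lists of protein quality control were as near to 0. The median was 0.028 over 15 genes of the unfolded protein response, 0.072 over 13 heat shock proteins, 0.036 over 21 proteasome genes and 0.054 over 17 genes of autophagy and the lysosome, with 0 passing in each. Ctsd, the lysosomal protease cathepsin D, stood at 10.22 and 10.87 at 30 min and 10.31 and 10.61 at 4 h, a difference of 0.48 ± 0.12 with an adjusted p of 0.216 in limma. Reactive astrocyte genes had a median of -0.007 over 14 genes, with 0 passing. In both pairs 6 (42.9%) were lower and 1 (7.14%) higher, against 28% and 27.3% of all probes. That median was -0.05 without background modelling, -0.06 with median scaling and -0.13 from the series matrix values. Slc1a2, the main glutamate transporter of astrocytes, was higher in both pairs at 8.39 and 8.70 and at 8.56 and 9.09, a difference of 0.42 ± 0.13 (adjusted p = 0.306 in limma). Sox10, a transcription factor of oligodendrocytes, differed by 0.45 ± 0.12 and Opalin, a myelin protein, by -0.33 ± 0.13, while the 15 myelin genes had a median of 0.015. Map1b, a microtubule protein of axons, differed by 0.52 ± 0.12.

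Over all 44 lists, 43 had a member tested, with 532 genes in all, and 0 lists had a member past the threshold. In 3 lists the median mean difference lay more than 0.1 from 0: skeletal muscle at -0.19, the glucocorticoid response at -0.118 and endothelium at 0.118. The endothelial median was -0.042 at 30 min and 0.122 at 4 h. For the mean difference it was 0.17 without background modelling, but 0.07 with median scaling and 0.04 from the series matrix values. The glucocorticoid list lay lower in G93A at 30 min alone, at -0.195, against 0.015 at 4 h. Its member Sgk1, a kinase induced by steroid hormones, stood at 12.93 and 12.53 at 30 min and at 12.22 and 12.25 at 4 h.

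**Figure D5:**
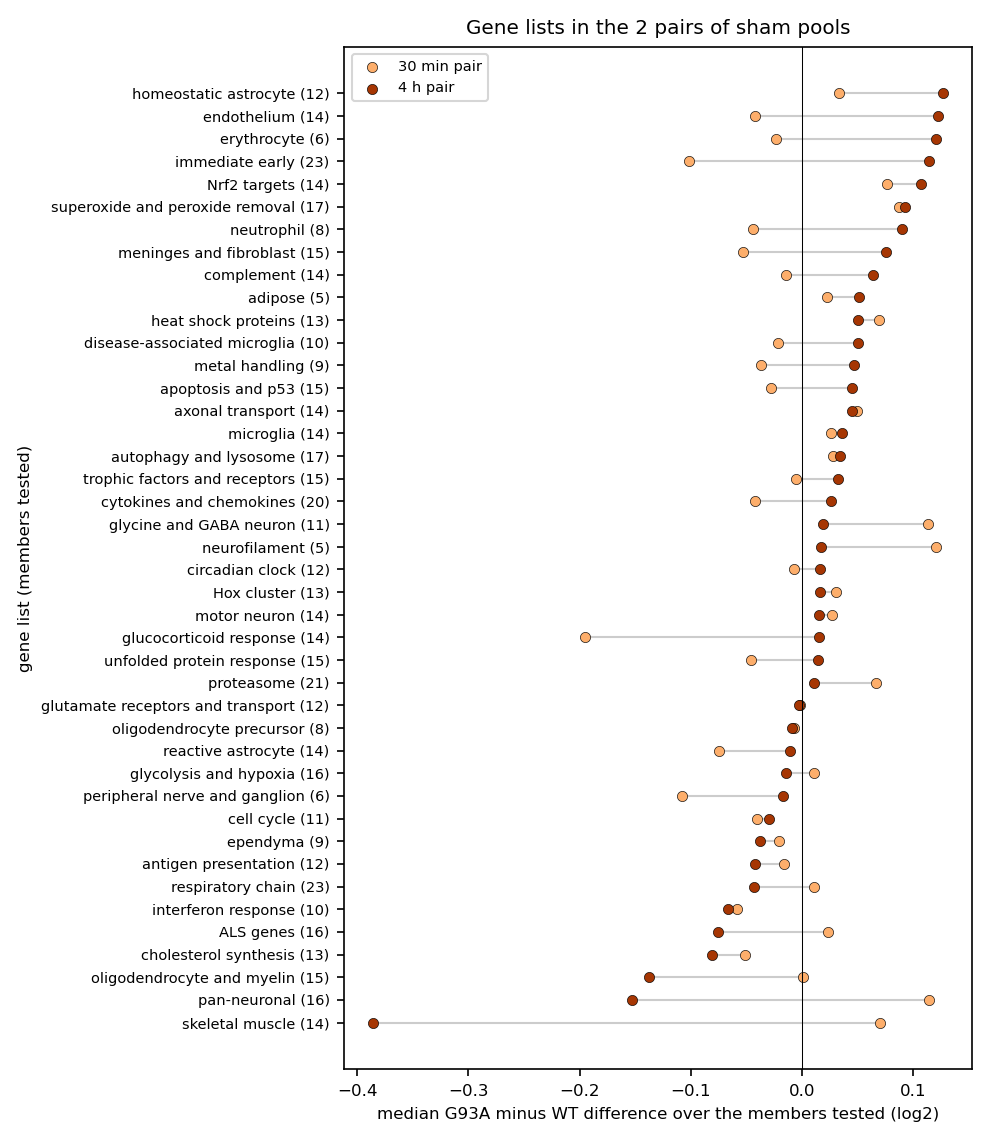
Each row is 1 of the 42 gene lists with at least 5 members tested, with the number tested in brackets. The points are the median G93A minus WT difference over those members, on the log2 scale, in the 30 min pair (light) and the 4 h pair (dark). Skeletal muscle at 4 h stands furthest from 0, at -0.386, and the glucocorticoid list at 30 min next, at -0.195.

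Hox genes, whose levels mark position along the cord, were compared because the place of the cut could differ between pools. Of 13 tested, 0 passed, and the median was 0.026. Hoxd10, a gene of the lumbar cord, stood at 7.27 in WT and 7.31 in G93A at 30 min and at 10.03 and 9.28 at 4 h. It thus differed between the times in both genotypes, and over all 12 pools it ranged from 6.72 to 10.03. At 4 h Hoxb8 differed by -0.66 and Hoxa7 by 0.72, with -0.14 and 0.03 at 30 min. Which stretch of the cord each pool held was not tested beyond these genes.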

How the data were processed

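RNA of each pool was extracted from thoracic cord and labelled with the Ambion Total Prep kit, per the labels' protocols. BeadStudio 3.2.6 gave the deposited intensity of each probe, per the submitters' processing notes. Some intensities lie below 0, so background was subtracted. Each has a detection p-value deposited next to it, per the file headers. In the authors' second deposited table, the series matrix, an array's intensity values are a linear function of its signals. The sources used here give no method for it and no further steps.

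The identifier column was sorted as text and set beside the value rows in file order, which moved 22225 of 22226 identifiers. This pairing was inferred from the data. Of the probes, 13192 have 1 gene symbol, 9034 none and 0 several.

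The 12 arrays were normalized together by neqc (limma 3.58.1, R 4.3.3) at an offset of 16. Probes with a detection p under 0.05 on at least 2 sham arrays were kept. Genotype was fitted with limma (lmFit, eBayes with intensity trend) on the 4 sham pools with time as a term, with Benjamini-Hochberg adjustment over all probes at 0.05. This fit has 1 residual degree of freedom and 16.1 prior ones, so that a probe with unlike pairs can still reach a small p. Genotype by time, genotype by surgery and the leave-one-out fits used 10 pools, without the 30 min injury pair. A 1.5-fold difference in each pair served as a rule without a test. A fold against a group not above background is a bound, from the means of normalized log2 values with the lowest detected signal of the array as floor.

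The 44 gene lists hold 820 entries, 644 on the array, 10 through a synonym. For a gene with several probes, the one of highest mean sham signal stood for it. Named were the 10 genes of smallest p in each direction with both pairs agreeing, the 5 largest differences in each direction at each time, up to 4 members of a list described, and Sod1. Further members of a list, the probes past 1.5-fold in both pairs and the genes shared by alternatives were named after their values were seen. The comparison, its members and the lists were chosen with earlier results of these data known. The genotype fit of the sham pools was tested on simulated data with independent noise, and the other fits were not. The number of arrays limits the precision. Alternatives are in the closing section.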

Additional observations from a re-analysis of the deposited data

Results flagged for a closer look

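The genotype difference in Mb, the myoglobin gene, was not the same at the 2 times. The difference at 4 h minus that at 30 min was -0.72 on the log2 scale, by a limma interaction term over 10 pools with an adjusted p of 0.0467. The level was 7.23 in the WT pool at 4 h and between 6.49 and 6.50 in the other 3 sham pools, so that 1 pool sets the value. Acta1, Ckm and Tnnt3 were high in the same pool.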

How the results depend on the processing

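The count of 0 genotype calls held with all 12 pools, 10 pools, no trend, probes detected on all 4 sham arrays, neqc on the sham arrays alone, no background modelling and an offset of 50. The time term pairs the pools, and without it (no replicate block) the count was also 0, with 596 probes at an unadjusted p under 0.05 and a smallest adjusted p of 0.91. Calls appeared with robust eBayes (2, both higher, Cd74 and 1 unnamed probe), without a filter (3), with a filter on 2 of the 12 arrays (29, 15 higher and 14 lower), with the series matrix values (10, 5 each way) and with median scaling in place of quantile (143, 73 higher and 70 lower). The smallest adjusted p over these settings and the leave-one-out fits lay between 5.57e-28 and 1, and the cause was not tested. Leaving out 1 sham pool gave 0 to 7 genotype calls and 0 to 6 calls of genotype by surgery. The 4 probes 1.5-fold apart in both pairs became 0 at 2-fold, 2 with an offset of 50 (both higher) and 58 with the series matrix (15 higher, 43 lower). Without background modelling the count was 3, all higher. The genotype by time call became 0 with all 12 pools, without a trend, without background modelling and without a filter, where 33, 237, 109 and 362 probes had an unadjusted p under 0.05. Genotype in the injured pools gave 1 call without a filter. The 37 genes named by smallest p or largest difference, with Sod1, were refitted under 6 alternatives each. Of these 222 values, 190 kept direction and call, 32 gained a call and 0 reversed. With all 12 pools and with 10 pools the difference comes from the same 4 sham pools, so no reversal was possible there. Sizes moved elsewhere: the series matrix gave 1.37 for Krt72, -1.27 for Dhrs7c, -1.30 for Ckm, -1.40 for Car3, -1.22 for Myh7 and 0.08 for S100a8. Of 210 settings of the 42 list medians, 121 stayed within and 89 moved past the spread of the 2 pairs. No scaling moved the median of all probes by more than 0.071. Probes near background limit the low levels, where small differences can reach a small p.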

Other observations

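Further lists lay near 0 in the sham pools under the main normalization, with 0 members past the threshold in any. Over all probes, 28% were lower and 27.3% higher in both pairs. Of 13 genes of cholesterol synthesis, 6 (46.2%) were lower and 1 (7.69%) higher in G93A in both pairs, with a median of -0.075. Of 10 interferon response genes, 5 (50%) were lower and 1 (10%) higher in both, with a median of -0.052. That median was -0.10 with median scaling, -0.14 without background modelling and -0.15 from the series matrix values. Mx2, an antiviral GTPase, stood at 7.68 and 7.30 at 30 min and at 8.07 and 7.72 at 4 h in WT and G93A. Of 11 cell cycle genes, 6 (54.5%) were lower and 2 (18.2%) higher in both, with a median of -0.021. Under the same 3 settings that median was -0.08, -0.11 and -0.20. The 23 respiratory chain genes had a median of -0.018, the 16 of glycolysis and hypoxia 0.006, the 9 of metal handling 0.021 and the 14 of axonal transport 0.034.

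Among neurons, the 16 pan-neuronal genes had a median of 0.114 at 30 min and -0.153 at 4 h. Uchl1, a ubiquitin hydrolase of neurons, stood at 11.56 in WT and 12.18 in G93A at 30 min and at 11.48 and 11.49 at 4 h. Vsnl1, a neuronal calcium sensor, stood at 10.14 and 9.99 at 30 min and at 10.04 and 9.39 at 4 h. The 11 glycine and GABA neuron genes had a median of 0.000 and the 12 of glutamate receptors and transport -0.004. In Gria2, a subunit of AMPA receptors, the difference was -0.36 ± 0.12 (limma adjusted p = 0.311). Lum, a proteoglycan of the meninges, stood at 9.07 and 8.39 at 30 min and at 8.89 and 8.52 at 4 h, and the 15 genes of meninges and fibroblasts had a median of 0.038.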
